A study of Mus musculus with 12 samples.

Results

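Genes that mark pericytes, smooth muscle cells and fibroblasts were examined in bulk RNA sequencing of sorted brain cells. The 10 genes were listed by name: *Pdgfrb*, *Vtn* and *Rgs5* for pericytes, *Acta2*, *Tagln* and *Myl9* for smooth muscle, and *Dcn*, *Col1a1*, *Col1a2* and *Col3a1* for fibroblasts. Their Ensembl identifiers were all found among the 47643 genes of the count table. The cells came from 5 old male mice on a C57BL/6 background, aged 113, 115, 116, 116 and 116 weeks (mice 1 to 5). All 5 carried the p16-3MR transgene, in which the p16 promoter drives a red fluorescent protein fused to a luciferase and to a truncated viral thymidine kinase. The fluorescence therefore reports activity of this transgene and not the p16 protein itself. Brains were dissociated with a protease in the cold, myelin was removed on Percoll, and viable nucleated cells were sorted by fluorescence. Each mouse gave 1 RFPneg sample and 1 RFPpos sample, which makes the samples pairs from 1 animal, matched here by sample number. The paper calls the bulk populations RFPLow and RFPHigh, where the sample labels say RFPneg and RFPpos. RFPneg cells are thus cells of low signal and need not lack the reporter. No gate selected or removed vessel wall cells, and both populations are mixtures of cell types.

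Brain vessels are lined by endothelial cells and wrapped by mural cells, which are pericytes on capillaries and contractile smooth muscle cells on arterioles and arteries. Pericytes are recruited when endothelial cells release the growth factor PDGF-B, which acts on the receptor encoded by *Pdgfrb*, and they share a basement membrane with the endothelium. Fibroblasts lie around larger vessels and in the meninges, where they deposit fibrillar collagen and small proteoglycans.

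The libraries were 3′ libraries, in which each transcript gives a tag near its end, and the deposited values were counts per gene. RFPneg samples held between 177287 and 415834 counts on genes, and RFPpos samples between 222560 and 289713. Reads on no gene were a larger share in RFPpos (38.4% to 48.6% of reads) than in RFPneg (32.1% to 37.2%), without overlap. With these reads added to the library sizes, 6 of the 10 genes were called lower, as without them. Levels are given as CPM, in which a library's counts on genes are scaled to a fixed total, and 1 count was worth between 2.4 and 5.64 CPM depending on the library. The 10 genes together took 0.0496%, 0.0637%, 0.038%, 0.072% and 0.0434% of the counts in RFPneg mice 1 to 5, and 0.00135%, 0.00966%, 0.0157%, 0.0252% and 0.00824% in RFPpos mice 1 to 5. They were thus rare transcripts in both populations, and every RFPneg share lay above every RFPpos share. In counts these were 680 in the RFPneg samples together and 149 in the RFPpos samples. The RFPpos library of mouse 1 stood lowest, with 3 counts on the 10 genes and 0 counts for 8 of them.

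RefSeq promoter windows, from 250 bases before to 50 bases after a start site on GRCm38.p6, were matched for 6 of the 10 genes. They were *Vtn*, *Rgs5*, *Acta2*, *Myl9*, *Col1a2* and *Col3a1*, and no window was used for *Pdgfrb*, *Tagln*, *Dcn* and *Col1a1*. Each window was searched on both strands for the CArG box (CC, then 6 bases that are A or T, then GG), which is the sequence that serum response factor is known to bind in smooth muscle genes, and for TATAAA and CCAAT. The windows of 4 genes are shown because they hold these matches in a pericyte, a smooth muscle and a fibroblast gene that are described below with their counts. They are those of *Vtn* (chr11:78498870-78499169, plus strand), *Rgs5* (chr1:169655251-169655550, plus strand), *Myl9* (chr2:156775214-156775513, plus strand) and *Col1a2* (chr6:4505368-4505667, plus strand), with every match in capitals:
Vtn: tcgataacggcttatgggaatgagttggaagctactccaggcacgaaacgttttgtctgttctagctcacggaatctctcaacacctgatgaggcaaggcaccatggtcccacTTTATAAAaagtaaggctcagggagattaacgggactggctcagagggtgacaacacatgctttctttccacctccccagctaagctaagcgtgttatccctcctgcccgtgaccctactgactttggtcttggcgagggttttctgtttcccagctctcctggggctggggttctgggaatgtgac
Rgs5: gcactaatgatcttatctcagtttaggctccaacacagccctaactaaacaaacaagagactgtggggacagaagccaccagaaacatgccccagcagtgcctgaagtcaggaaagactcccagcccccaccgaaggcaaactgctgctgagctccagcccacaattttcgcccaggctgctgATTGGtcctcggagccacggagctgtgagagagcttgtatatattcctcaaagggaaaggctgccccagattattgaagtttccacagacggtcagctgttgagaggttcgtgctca
Myl9: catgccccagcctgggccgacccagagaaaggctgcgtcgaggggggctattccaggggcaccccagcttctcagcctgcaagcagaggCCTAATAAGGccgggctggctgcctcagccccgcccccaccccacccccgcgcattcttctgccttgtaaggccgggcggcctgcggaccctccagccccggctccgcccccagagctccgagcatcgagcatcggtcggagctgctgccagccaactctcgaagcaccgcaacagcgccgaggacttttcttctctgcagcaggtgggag
Col1a2: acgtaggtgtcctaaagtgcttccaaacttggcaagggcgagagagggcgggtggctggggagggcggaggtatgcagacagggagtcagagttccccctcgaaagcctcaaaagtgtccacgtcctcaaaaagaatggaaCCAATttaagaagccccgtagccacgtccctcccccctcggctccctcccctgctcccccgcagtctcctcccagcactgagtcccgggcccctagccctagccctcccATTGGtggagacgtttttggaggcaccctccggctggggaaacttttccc
The window of *Myl9* held a CArG box from base -161 to base -152, which reads as a match on either strand, and 535 of all 32851 windows (1.63%) held one. *Vtn* held TATAAA at -135 and again on the other strand from -137, the copies overlapping, and *Col3a1* held it at -117, against 13.6% of all windows. CCAAT lay on the other strand of *Rgs5* at -67, and in *Col1a2* at -109 and on the other strand at 1, against 37.4% of all windows. No match was found for *Acta2* in its window (chr19:34255324-34255623, minus strand). The RefSeq start used lies downstream of the first GENCODE start by 217 bases in *Acta2*, 804 in *Col1a2*, 44 in *Myl9* and 29 in *Vtn*. Of the 300 bases of a window, 267 in *Acta2* and all 300 in *Col1a2* thus lie inside the GENCODE gene, and sequence before the first GENCODE start was hardly searched for *Acta2* and not searched for *Col1a2*. Matches had to be exact, so sequences that are close to a pattern but depart from it were not counted. A match describes the letters in the window, and binding was not measured.

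**Figure D1:**
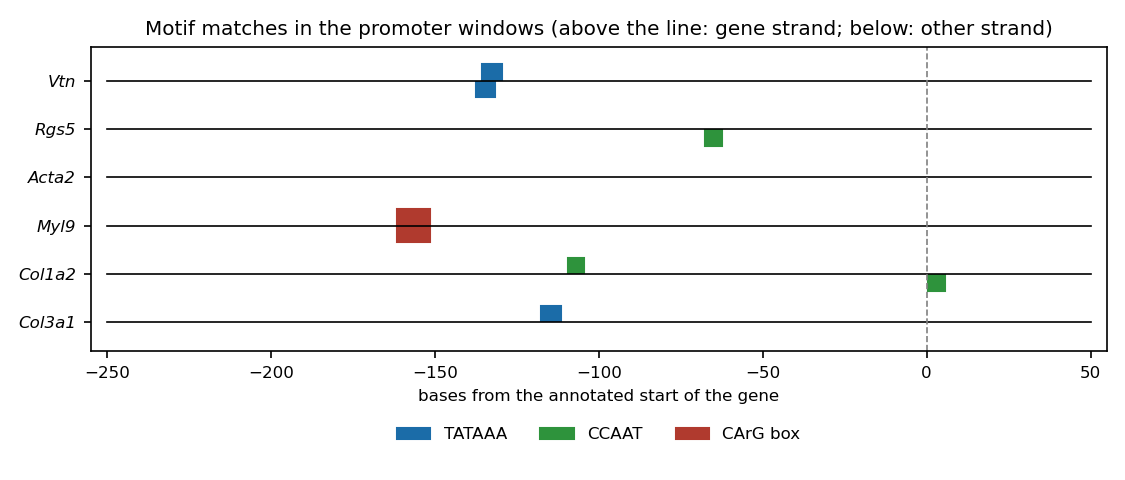
Positions of motif matches in the promoter windows of 6 genes, in bases from the RefSeq start, with matches on the gene's strand above the line and on the other strand below it. An exact match to the CArG box appears in *Myl9* alone among the 6 windows. *Acta2* has no match, but 267 of the 300 bases of its window lie inside the GENCODE gene, as do all 300 of *Col1a2*.

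Across all genes, edgeR's quasi-likelihood test was fitted to 12270 genes with at least 10 counts over the 10 samples, with mouse as a blocking factor. Calls required a Benjamini-Hochberg adjusted p below 0.05 together with a log2 fold change beyond 1 in either direction. By this rule 828 genes (6.75%) were called lower in RFPpos and 343 (2.8%) higher. Of the 10 genes, 9 had enough counts to be tested and 6 were called lower: *Pdgfrb*, *Vtn*, *Rgs5*, *Acta2*, *Dcn* and *Col1a2*. *Tagln*, *Myl9* and *Col1a1* were tested and not called, and *Col3a1* had too few counts to be tested. Without mouse 1, 4 were called, *Vtn* and *Col1a2* being lost. Scaling libraries to microglia markers moved the median of all genes by -1.18. Of the 12270 genes, 5450 were then called lower, and so were all 9 tested of the 10. Counts called lower with this scaling in the lists below are to be read beside that number. The median log2 fold change of the 9 was -2.89, or -1.97 with *Tagln* at the bound given below, against -0.15 over all genes tested. A gene with few counts can pass the minimum through the population in which it is high, so these figures describe the genes and are not a test of the list. All 10 genes had more counts in RFPneg than in RFPpos, and *Vtn* and *Rgs5* had every RFPneg sample above every RFPpos sample, as did 6.44% of the genes tested. In counts from mixed cells, fewer cells of a type and less RNA per cell cannot be told apart.

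**Figure D2:**
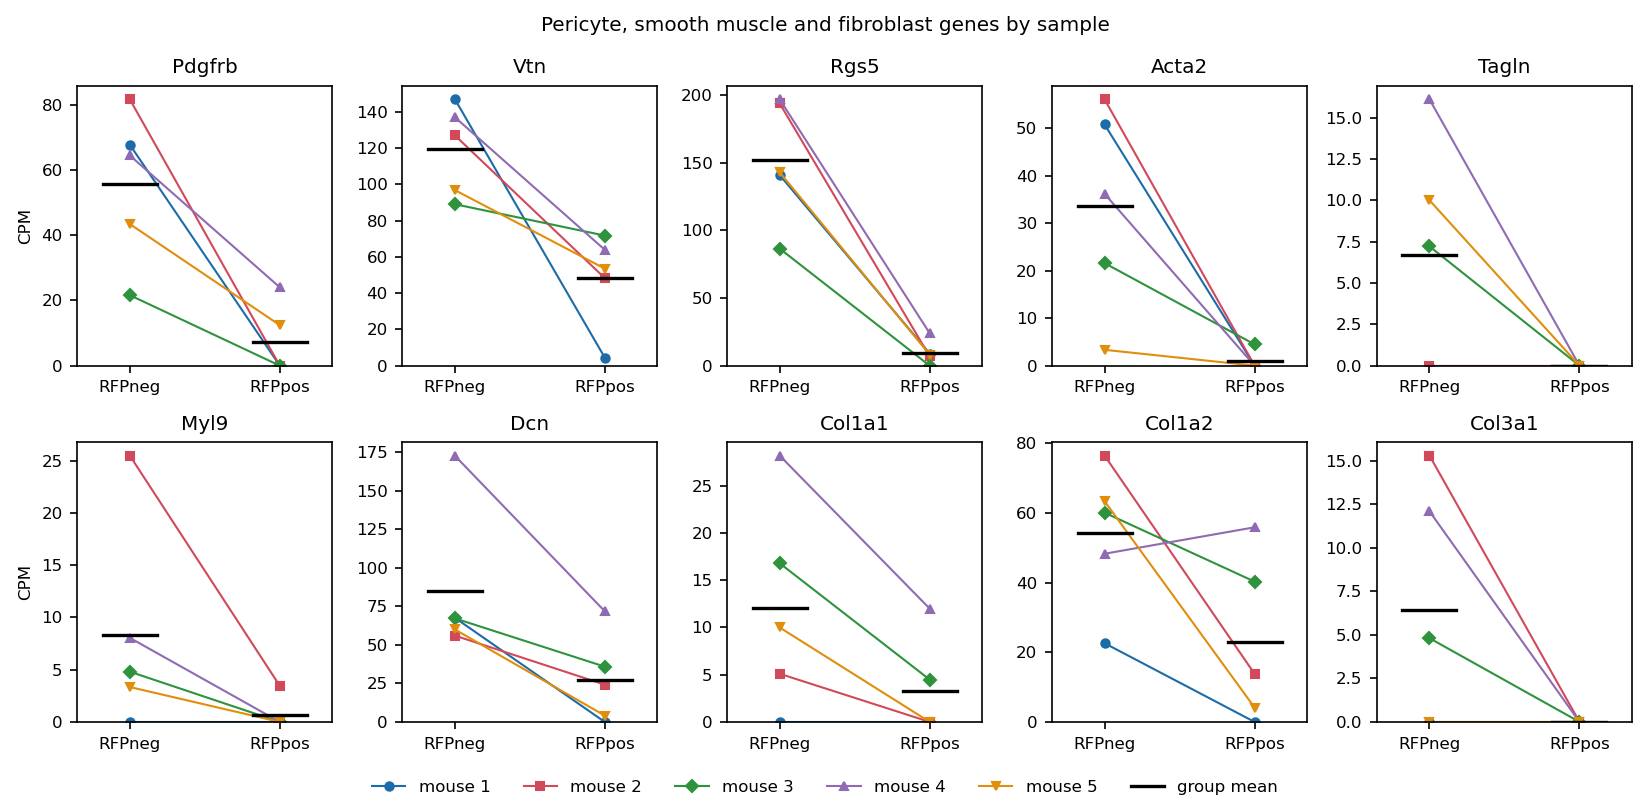
Level of each of the 10 genes in CPM (vertical axis) in the RFPneg and RFPpos sample of each mouse, joined by a line, with the group mean as a black bar. The populations do not overlap in *Vtn* and *Rgs5*, and *Col1a2* rises in mouse 4 while falling in the other mice.

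*Rgs5* encodes a regulator of G protein signalling and marks pericytes (ENSMUSG00000026678; GRCm38 chromosome 1, 169655501 to 169695813, plus strand). RFPneg mice 1 to 5 gave 25, 38, 36, 49 and 43 counts (141, 194, 86.6, 197 and 143 CPM), and RFPpos mice 1 to 5 gave 2, 2, 0, 6 and 2 counts (8.99, 6.9, 0, 24 and 8.24 CPM). The populations did not overlap, and RFPpos mouse 4 was the highest of its group. The mean of *Rgs5* was 152 ± 45.4 CPM in RFPneg and 9.62 ± 8.77 CPM in RFPpos (SD, n = 5 each), and its log2 fold change was -3.91 (standard error 0.43; edgeR adjusted p = 7.73e-18), and was lower in 5 of 5 mice.

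*Pdgfrb* encodes the PDGF receptor beta, through which pericytes are recruited and kept on the capillary (ENSMUSG00000024620; chromosome 18, 61045150 to 61085061, plus strand). Its counts were 12, 16, 9, 16 and 13 in RFPneg mice 1 to 5 and 0, 0, 0, 6 and 3 in RFPpos mice 1 to 5. RFPpos mice 1, 2 and 3 were at 0, while RFPpos mouse 4, at 24 CPM, lay above RFPneg mouse 3, at 21.6 CPM, so that the populations overlapped in these samples. Within every mouse the RFPpos sample was the lower one. The mean of *Pdgfrb* was 55.7 ± 23.5 CPM in RFPneg and 7.26 ± 10.8 CPM in RFPpos (SD, n = 5 each), and its log2 fold change was -2.94 (standard error 0.63; edgeR adjusted p = 7.16e-05).

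*Vtn* encodes vitronectin, an adhesive glycoprotein that brain pericytes secrete (ENSMUSG00000017344; chromosome 11, 78499091 to 78502324, plus strand). RFPneg mice 1 to 5 gave 26, 25, 37, 34 and 29 counts (147, 127, 89, 137 and 96.8 CPM), and RFPpos mice 1 to 5 gave 1, 14, 16, 16 and 13 counts (4.49, 48.3, 71.7, 63.9 and 53.5 CPM). Mouse 1 stood apart in RFPpos with a single count, whereas the other RFPpos samples kept between 48.3 and 71.7 CPM. The mean of *Vtn* was 119 ± 25.2 CPM in RFPneg and 48.4 ± 26.2 CPM in RFPpos (SD, n = 5 each), and its log2 fold change was -1.24 (standard error 0.33; edgeR adjusted p = 0.00295). Without mouse 1 the log2 fold change was -0.86 and the call was lost (edgeR adjusted p = 0.105), and with DESeq2 the adjusted p was 0.0573.

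The balance of *Vtn* and *Rgs5* within a library does not depend on how libraries are scaled, and was examined after their values were seen. *Vtn* made up 51%, 39.7%, 50.7%, 41% and 40.3% of the *Vtn* and *Rgs5* counts in RFPneg mice 1 to 5, and 33.3%, 87.5%, 100%, 72.7% and 86.7% in RFPpos mice 1 to 5. The share was higher in RFPpos in 4 of 5 mice, and lower in mouse 1, where it rests on 3 counts. The mean share was 44.5% ± 5.78 in RFPneg and 76% ± 25.8 in RFPpos (SD, n = 5 each), a difference of 31.5 percentage points. Exchanging the labels of a pair in all 32 ways, an exact two-sided permutation test gave p = 0.125, and 5 pairs allow no p under 0.0625. This test could therefore not pass 0.05 whatever the values, and nothing is concluded from it. RFPpos samples of mice 2 to 5 held *Vtn* counts with few *Rgs5* counts beside them.

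**Figure D3:**
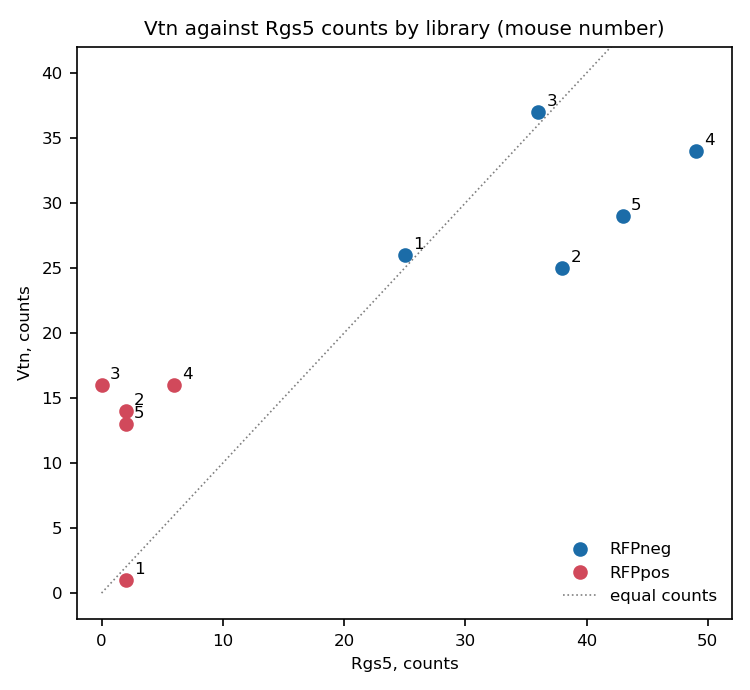
Counts of *Vtn* (vertical axis) against counts of *Rgs5* (horizontal axis) in each library, numbered by mouse, with a dotted line where they are equal. RFPpos mice 2 to 5 lie above the line with 13 to 16 counts of *Vtn* and 0 to 6 of *Rgs5*, and RFPpos mouse 1 lies near the origin.

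Of 12 other pericyte genes, 8 were tested and 7 were called lower. *Kcnj8* and *Abcc9* encode the pore and the regulatory subunit of an ATP-sensitive potassium channel. *Kcnj8* had 6, 2, 2, 6 and 3 counts in RFPneg mice 1 to 5, *Abcc9* had 13, 6, 1, 10 and 14, and both were at 0 in every RFPpos library. *Atp13a5*, a transport ATPase gene, had 8, 6, 8, 10 and 5 counts in RFPneg and 0 in every RFPpos library. *Higd1b* and *Cspg4*, the latter encoding the NG2 proteoglycan of the pericyte surface, had 18 and 17 counts in RFPneg and 0 in RFPpos. Against a floor of 3 counts over the 5 RFPpos libraries together (2.44 CPM), *Abcc9* was at least 13.5-fold lower, *Atp13a5* at least 11.3-fold, *Kcnj8* at least 5.82-fold, *Higd1b* at least 5.51-fold and *Cspg4* at least 5.21-fold. The exact intervals given for other genes cover counting error in both populations, and no other error. Floors cover it in RFPpos alone, since the RFPneg count is taken as exact. Each "at least" value here and below is therefore less strict than such an interval.

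Other pericyte genes kept a few counts in RFPpos. *Mcam*, an adhesion molecule gene shared with endothelial and smooth muscle cells, had 12, 8, 17, 18 and 14 counts in RFPneg mice 1 to 5 and 0, 2, 1, 2 and 5 in RFPpos mice 1 to 5, without overlap in CPM (log2 fold change -2.62, edgeR adjusted p = 2.79e-04). *Notch3*, a receptor gene of mural cells, had 6, 6, 2, 12 and 16 counts in RFPneg and 0, 0, 2, 1 and 2 in RFPpos, and was lower in 4 of 5 mice (log2 fold change -2.74, edgeR adjusted p = 0.0106). *Art3* had 25 and 4 counts and was not called. The calls of *Kcnj8* and *Notch3* were lost without mouse 1, 2 or 4 and with DESeq2 (adjusted p = 0.0772 and 0.0514). Those of *Higd1b* and *Cspg4* were lost without mouse 1, 2, 3 or 4 (edgeR adjusted p up to 0.156), with no filter and with DESeq2, which gave them no adjusted p (unadjusted p = 0.0111 and 0.0127), and that of *Higd1b* also with thinned counts (0.068). In place of 7, 3 genes of the list were called lower without mouse 1, without mouse 2, without mouse 4 and with DESeq2, 5 without mouse 3 and with no filter, 6 with thinned counts, and 8 with limma voom, with edgeR's likelihood ratio test or with libraries scaled to microglia markers.

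In the smooth muscle genes the counts were small in both populations. *Acta2* encodes smooth muscle alpha actin of the contractile filaments (ENSMUSG00000035783; chromosome 19, 34241090 to 34255590, minus strand). Its counts were 9, 11, 9, 9 and 1 in RFPneg mice 1 to 5 and 0, 0, 1, 0 and 0 in RFPpos mice 1 to 5. RFPneg mouse 5, with 1 count, was as low as the single RFPpos library in which the gene was seen, so the populations overlapped there. The 39 counts against 1 give a ratio of RFPneg to RFPpos of 35.8, with an exact 95% counting interval from 6.06 to 1451. The fitted log2 fold change was -4.57 (standard error 1.07, edgeR adjusted p = 4.24e-04), a value that depends on the prior count of the fit at such low counts.

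*Tagln* encodes transgelin, an actin-binding protein of smooth muscle (ENSMUSG00000032085; chromosome 9, 45929619 to 45936058, minus strand). It had 0, 0, 3, 4 and 3 counts in RFPneg mice 1 to 5 and 0 in every RFPpos library, which makes it at least 3.06-fold lower in RFPpos against the floor over the group. *Tagln* was not called (edgeR adjusted p = 0.2), and it overlaps genes on the opposite strand. *Myl9* encodes a regulatory light chain of myosin (ENSMUSG00000067818; chromosome 2, 156775420 to 156781658, plus strand), and its promoter window held the CArG box shown above. It had 0, 5, 2, 2 and 1 counts in RFPneg mice 1 to 5 and 0, 1, 0, 0 and 0 in RFPpos mice 1 to 5, a ratio of 9.19 with an exact 95% counting interval from 1.31 to 399, and was not called (edgeR adjusted p = 0.316). With libraries scaled to microglia markers, both were called lower (edgeR adjusted p = 0.0244 for *Tagln* and 0.0326 for *Myl9*).

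Of 12 other smooth muscle genes, 5 were tested and 3 were called lower. *Cald1* encodes caldesmon, which binds actin and myosin, and had 26, 25, 32, 62 and 30 counts in RFPneg mice 1 to 5 and 0, 3, 4, 10 and 7 in RFPpos mice 1 to 5 (log2 fold change -2.77, edgeR adjusted p = 5.71e-11). *Tpm1*, a tropomyosin gene, fell from 109 ± 32.8 to 26 ± 10.4 CPM (SD, n = 5 each; log2 fold change -1.99), and *Mylk*, the myosin light chain kinase gene, from 38.7 ± 14.4 to 6.08 ± 7.59 CPM (SD, n = 5 each; log2 fold change -2.69). All 3 were lower in 5 of 5 mice without overlap, though *Mylk* was not called without mouse 2 (edgeR adjusted p = 0.0556), and all 3 are also expressed outside smooth muscle. *Myh11*, the smooth muscle myosin heavy chain gene and a narrower marker, had 0, 4, 1, 1 and 5 counts in RFPneg and 0 in RFPpos, at least 3.37-fold lower, and *Smtn* had 13 counts and 0, at least 3.98-fold lower. Neither was called (edgeR adjusted p = 0.137 for *Myh11* and 0.091 for *Smtn*), though all 5 tested genes were called lower with edgeR's likelihood ratio test, without the mouse as a block, at an unadjusted p below 0.05 and with libraries scaled to microglia markers, and 4 with limma voom. *Cnn1*, *Actg2* and *Map3k7cl* had 0 counts in all 10 libraries.

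In the fibroblast genes the RFPpos samples ranged from 0 counts to levels within the RFPneg range. *Dcn* encodes decorin, a small proteoglycan that binds collagen fibrils (ENSMUSG00000019929; chromosome 10, 97479609 to 97518143, plus strand). RFPneg mice 1 to 5 gave 12, 11, 28, 43 and 18 counts (67.7, 56.1, 67.3, 173 and 60.1 CPM), and RFPpos mice 1 to 5 gave 0, 7, 8, 18 and 1 counts (0, 24.2, 35.9, 71.9 and 4.12 CPM). Mouse 4 was the highest in both populations, and its RFPpos sample lay above 4 of the RFPneg samples, while RFPpos mice 1 and 5 were near 0. The mean of *Dcn* was 84.8 ± 49.6 CPM in RFPneg and 27.2 ± 28.9 CPM in RFPpos (SD, n = 5 each), and its log2 fold change was -1.73 (standard error 0.42; edgeR adjusted p = 8.37e-04), and was lower in 5 of 5 mice.

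*Col1a2* encodes the alpha 2 chain of type I collagen (ENSMUSG00000029661; chromosome 6, 4504814 to 4541544, plus strand). RFPneg mice 1 to 5 gave 4, 15, 25, 12 and 19 counts (22.6, 76.5, 60.1, 48.3 and 63.4 CPM), and RFPpos mice 1 to 5 gave 0, 4, 9, 14 and 1 counts (0, 13.8, 40.3, 55.9 and 4.12 CPM). The populations overlapped, and in mouse 4 the RFPpos sample was the higher one. The log2 fold change was -1.40 (standard error 0.50, edgeR adjusted p = 0.0449), with 54.2 ± 20.3 CPM in RFPneg and 22.8 ± 24.3 in RFPpos (SD, n = 5 each). This call was lost without mouse 1, 2, 3 or 5 (edgeR adjusted p from 0.0611 to 0.251), without the mouse as a block (0.114), with filterByExpr (0.0651), no filter (0.0587) or thinned counts (0.0771), and with DESeq2 (0.126) or limma voom (0.088).

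*Col1a1*, the gene of the alpha 1 chain of type I collagen (ENSMUSG00000001506; chromosome 11, 94936224 to 94953042, plus strand), had 0, 1, 7, 7 and 3 counts in RFPneg mice 1 to 5 and 0, 0, 1, 3 and 0 in RFPpos mice 1 to 5. It was not called (log2 fold change -1.97, standard error 1.26, edgeR adjusted p = 0.39), but was called lower with libraries scaled to microglia markers (-3.07, edgeR adjusted p = 0.0258). *Col3a1*, the type III collagen gene (ENSMUSG00000026043; chromosome 1, 45311538 to 45349706, plus strand), had 0, 3, 2, 3 and 0 counts in RFPneg and 0 in every RFPpos library, at least 2.45-fold lower against the floor over the group. The collagen counts of RFPpos came mostly from mice 3 and 4, and mouse 1 had 0 counts for all 4 fibroblast genes in RFPpos. A shorter gene lies on the same strand inside each of *Col1a2* and *Col3a1*, and reads that the counting reported as ambiguous, 0.295% to 0.436% of reads per sample, are in no gene's count.

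Of 22 other fibroblast genes, 16 were tested and 4 were called lower. *Mgp* encodes matrix Gla protein, an inhibitor of calcification that vessel wall cells also make, and had 25, 67, 168, 125 and 86 counts in RFPneg mice 1 to 5 and 0, 0, 9, 9 and 0 in RFPpos mice 1 to 5 (log2 fold change -4.57, edgeR adjusted p = 1.59e-39). *Fn1*, the fibronectin gene, had 28, 67, 119, 114 and 74 counts in RFPneg and 0, 6, 2, 12 and 0 in RFPpos (log2 fold change -4.29, edgeR adjusted p = 1.41e-34). Neither gene overlapped between the populations, and the endothelial part in their counts was not tested. *Igf2*, a growth factor gene of the meninges and choroid plexus, fell from 109 ± 44 to 20.3 ± 15.5 CPM (SD, n = 5 each; log2 fold change -2.35), and *Serping1*, the C1 inhibitor gene, from 31.3 ± 15.4 to 6.57 ± 7.61 CPM (SD, n = 5 each; log2 fold change -2.27, a call lost without mouse 1, 2, 3 or 5, with thinned counts and with DESeq2).

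The other 12 tested fibroblast genes were not called. Of all 16 tested, 13 had a fitted log2 fold change below zero, with a median of -1.15, and with libraries scaled to microglia markers 10 of the 16 were called lower. *Apod*, a lipid carrier gene that fibroblasts share with glia, had 134, 152, 269, 129 and 195 counts in RFPneg mice 1 to 5 and 17, 210, 206, 171 and 245 in RFPpos mice 1 to 5. RFPpos mouse 1 stood apart at 76.4 CPM, and the other RFPpos samples were within or above the RFPneg range (log2 fold change -0.09, edgeR adjusted p = 0.879; -1.32 and called lower with the microglia scaling). The remaining 11 are named here after their values were seen. *Col6a3* had 19 counts in RFPneg and 30 in RFPpos, *Col5a2* 15 and 18, *Mmp2* 14 and 16, *Fbln2* 31 and 27, *Bgn* 39 and 34, *Fstl1* 25 and 14, *Slc6a13* 19 and 12, *Aebp1* 18 and 8, *Islr* 9 and 4, *Pcolce* 18 and 3, and *Col6a2* 13 and 0.

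Basement membrane genes encode the sheet that pericytes and endothelium share. Of 13 such genes all were tested and 2 were called lower, or 3 with edgeR's likelihood ratio test, with limma voom or without the mouse as a block, and 10 with libraries scaled to microglia markers. *Col4a1* and *Col4a2* encode the chains of type IV collagen. *Col4a1* had 11, 30, 32, 26 and 31 counts in RFPneg mice 1 to 5 and 0, 2, 22, 7 and 2 in RFPpos mice 1 to 5 (log2 fold change -2.09, edgeR adjusted p = 1.42e-05). In CPM, RFPpos mouse 3 lay above its own RFPneg sample (98.6 against 77 CPM). *Col4a2* had 4, 10, 18, 29 and 8 counts in RFPneg and 0, 0, 0, 7 and 2 in RFPpos (log2 fold change -2.98, edgeR adjusted p = 1.25e-04). *Sparc*, a matrix-binding glycoprotein gene that microglia also express, was the most abundant of the list and went the other way, with 1815 ± 226 CPM in RFPneg and 3229.9 ± 297 in RFPpos (SD, n = 5 each). Its log2 fold change of 0.91 (edgeR adjusted p = 1.95e-05) was under the fold threshold, was seen as a higher level in 5 of 5 mice, and was -0.29 with libraries scaled to microglia markers. *Nid1*, the nidogen gene, had a log2 fold change of -0.68 (edgeR adjusted p = 0.43), and of -1.86 with that scaling (edgeR adjusted p = 2.82e-04).

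Collagen chains are modified, folded and crosslinked by enzymes that many cells share. Of 17 genes of this kind 14 were tested, and by edgeR's quasi-likelihood test 0 were called in either direction. At an unadjusted p below 0.05, 2 were lower, DESeq2 called 0, and limma voom, edgeR's likelihood ratio test and the fit without the mouse as a block each called 1 lower. Without mouse 5, 2 were called lower, and without mouse 2, 1 was called higher, *P4ha1* (log2 fold change 1.12). *Mia3*, which helps load collagen for export, had a log2 fold change of 0.34, *P4hb*, a subunit of prolyl hydroxylase, of -0.18, and *P4ha1*, its catalytic subunit, of 0.86 (edgeR adjusted p = 0.0145, under the fold threshold). With libraries scaled to microglia markers, 4 of the 14 were called lower, beside 5450 of all 12270 genes tested. With that scaling *P4hb* was at -1.38 (edgeR adjusted p = 1.11e-06), *Mia3* at -0.86 and *P4ha1* at -0.34. The list's median log2 fold change was -0.38, against -0.15 over all genes tested.

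The PDGF list held both ligands and receptors. *Pdgfra*, the receptor gene of fibroblasts and oligodendrocyte progenitors, had 5, 2, 3, 6 and 3 counts in RFPneg mice 1 to 5 and 0 in every RFPpos library, at least 5.82-fold lower against the floor over the group (edgeR adjusted p = 0.0183, a call lost without mouse 1, 2 or 4 and with DESeq2). With *Pdgfrb*, 2 of the 5 tested genes were called, both of them receptors, whereas with libraries scaled to microglia markers all 5 were called lower. *Pdgfb* encodes the ligand that acts on the receptor of *Pdgfrb*. It had 15, 19, 58, 24 and 57 counts in RFPneg and 18, 46, 23, 29 and 19 in RFPpos. Its log2 fold change was -0.11 (SE 0.28, edgeR adjusted p = 0.904), or -1.31 with the microglia scaling. All 12 endothelial markers were called lower in the same samples, and which cells held the *Pdgfb* counts was not tested. *Pdgfa* (-0.42, or -1.65 with that scaling) and *Pdgfd* (-1.49, or -2.70) were not called, and *Pdgfc* had too few counts to be tested.

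Transcription regulators of mural cells and fibroblasts were also examined. Of 11 such genes, 8 were tested and 5 were called lower, or 6 with the microglia scaling. *Ebf1* had 8, 60, 83, 68 and 78 counts in RFPneg mice 1 to 5 and 0, 1, 1, 2 and 0 in RFPpos mice 1 to 5 (log2 fold change -5.85, edgeR adjusted p = 6.81e-33). The forkhead genes *Foxc1* and *Foxf2*, known for roles in pericyte and vessel development, had 2, 23, 30, 29 and 20 and 1, 19, 24, 21 and 17 counts in RFPneg, and in RFPpos 3 and 4 counts, all in mouse 4. RFPneg mouse 1 was the lowest RFPneg sample for each of these 3 genes. *Tbx18* had 22 counts and 1, a ratio of 20.2 with an exact 95% counting interval from 3.27 to 834, and its call was lost without mouse 1, 2, 3 or 4, with thinned counts and with DESeq2. *Mrtfb*, a coactivator of serum response factor, fell from 76 ± 20.7 to 17.6 ± 10.7 CPM (SD, n = 5 each; log2 fold change -2.05), while *Srf* itself, the gene of the factor that binds the CArG box, was not called (log2 fold change 0.43, edgeR adjusted p = 0.757). *Myocd* and *Twist1* had 0 counts in all 10 libraries.

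**Figure D4:**
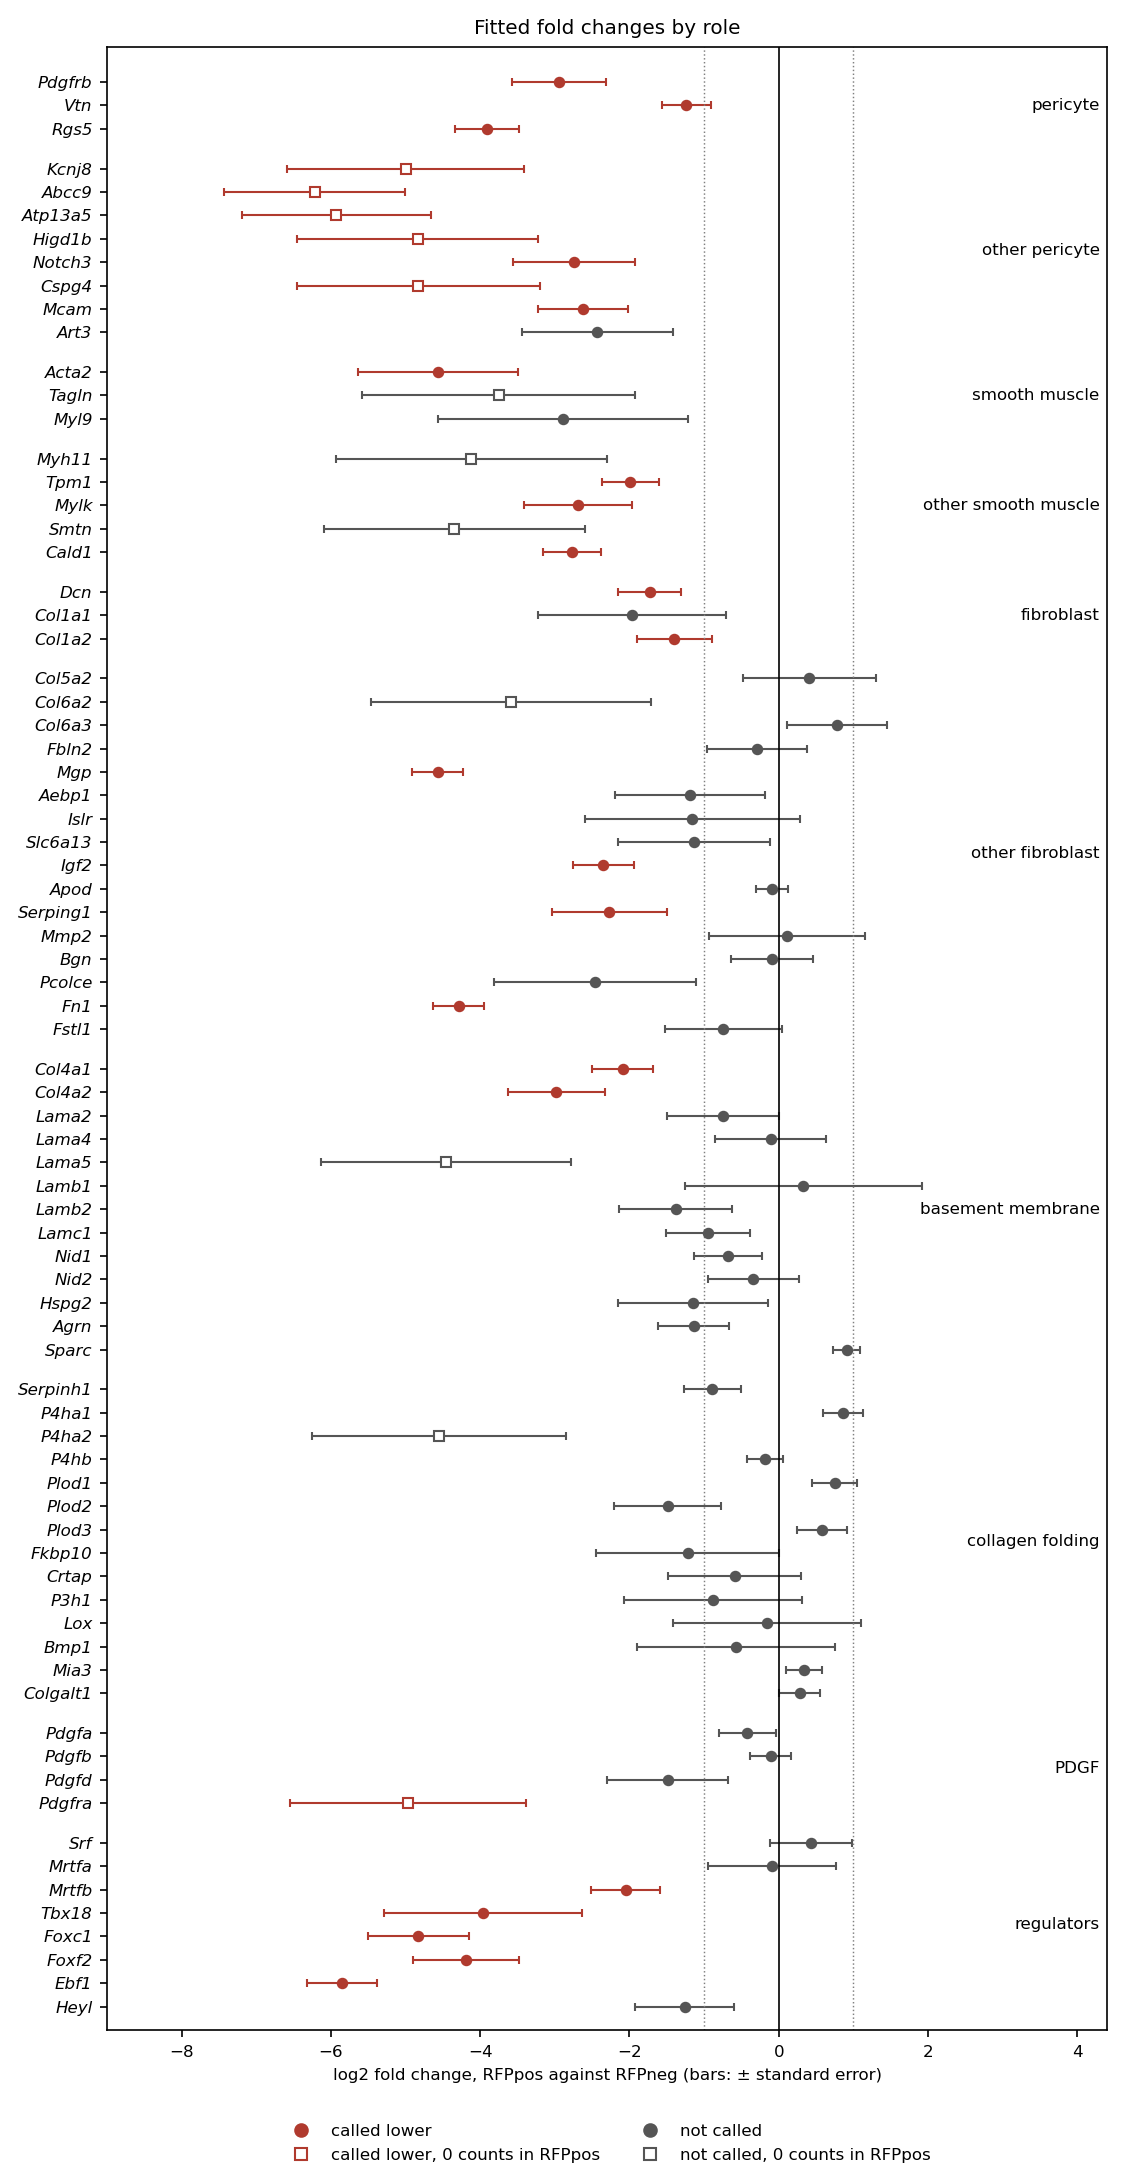
Fitted log2 fold changes of RFPpos against RFPneg (horizontal axis) with standard errors, grouped by role; red marks genes called lower, grey those not called, and open squares genes with 0 counts in RFPpos, whose fitted value depends on the prior count. Every tested gene of these lists is shown. The pericyte genes lie between -6.22 and -1.24, the regulators between -5.85 and 0.43, and the collagen folding genes between -4.55 and 0.86.

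Over these 7 lists, which hold 92 genes beside the 10, 68 were tested and 22 were called lower and 0 higher by edgeR's quasi-likelihood test, and 27 and 0 by its likelihood ratio test. At an unadjusted p below 0.05, 29 were lower and 0 higher, DESeq2 gave 15 and 0, and limma voom gave 26 and 0. Without mouse 2 the count called lower was 14, with 1 called higher, and without mouse 1 it was 15. With libraries scaled to microglia markers it was 47, where 5450 of all 12270 genes tested were called lower. By edgeR's quasi-likelihood test with the main scaling, 6.75% of all genes tested were called lower and 2.8% higher. The median log2 fold change of the 68 was -1.21.

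Genes of the same protein families that other cells use gave mixed values. Of 13 relatives of the actin, transgelin, myosin light chain and RGS genes, 10 were tested, 4 were called lower and 1 higher, or 6 lower and none higher with libraries scaled to microglia markers. *Tagln2*, the transgelin of non-muscle cells, had 19, 27, 49, 40 and 40 counts in RFPneg mice 1 to 5 and 10, 13, 14, 18 and 12 in RFPpos mice 1 to 5, without overlap in CPM (log2 fold change -1.19, edgeR adjusted p = 0.00225). *Tagln3*, a neuronal relative, had -1.26, a call lost without mouse 1, 3, 4 or 5, without the block, with either other filter, with thinned counts, and with DESeq2 or limma voom (adjusted p from 0.056 to 0.244), and *Myl6*, the essential light chain of non-muscle and smooth muscle myosin, had -2.22. *Actb*, the cytoplasmic beta actin gene, had 3177 ± 370.0 CPM in RFPneg and 3859 ± 585 in RFPpos (SD, n = 5 each), with a log2 fold change of 0.35 and no call, and of -0.86 with libraries scaled to microglia markers. Very similar actin genes can share reads, and *Actg1* had 6 counts in RFPneg and 4 in RFPpos, so its values are uncertain.

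Among the RGS relatives of *Rgs5*, *Rgs4*, expressed in neurons and mural cells, had 52 counts in RFPneg and 1 in RFPpos, a ratio of 47.8 with an exact 95% counting interval from 8.2 to 1923. *Rgs10*, an RGS gene of microglia, was higher in RFPpos in 5 of 5 mice (241 ± 61.2 against 475 ± 72.6 CPM; SD, n = 5 each), with a log2 fold change of 1.06 (edgeR adjusted p = 2e-05) that was 0.93 and under the fold threshold without mouse 1, under it also with library size scaling (0.99), filterByExpr (0.98) and thinned counts (0.94), and -0.14 when libraries were scaled to microglia markers. *Rgs2* had a log2 fold change of 0.99, just under the fold threshold, of 1.07 and called without mouse 2 or without mouse 5, of 1.06 and called with thinned counts, and of -0.21 with the microglia scaling.

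Markers of other cells moved with these genes. All 12 endothelial markers were called lower in RFPpos, with summed levels of 1771, 5813, 6048, 7763 and 4682 CPM in RFPneg mice 1 to 5 and 112, 197, 233, 399 and 247 CPM in RFPpos mice 1 to 5. The most abundant was *Flt1*, at a log2 fold change of -5.20, and *Emcn* was at 0 in every RFPpos library. For every 100 endothelial counts there were 20.1, 6.93, 3.26, 5.13 and 6.06 counts of *Pdgfrb*, *Vtn* and *Rgs5* in RFPneg mice 1 to 5 and 12, 28.1, 30.8, 28 and 30 in RFPpos mice 1 to 5. *Vtn* gave 60 of the 81 RFPpos counts of these genes, against 151 of 408 in RFPneg. By RFPpos mouse, 1 to 5, it gave 1 of 3, 14 of 16, 16 of 16, 16 of 28 and 13 of 18. The RFPpos ratios of mice 2, 3 and 5 thus rest largely on *Vtn*, while in mouse 4 *Pdgfrb* and *Rgs5* gave 6 counts each. A ratio without *Vtn* was not computed. The endothelial part in the values of the basement membrane, regulator and other fibroblast genes, *Mgp* and *Fn1* among them, was not tested. RFPneg mouse 1 had the lowest endothelial level of its group, and its pericyte genes were at 355 CPM together, within the 197 to 403 CPM of the RFPneg samples.

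Glial markers also differed among the RFPpos samples. The 10 astrocyte markers, led by *Slc1a2*, summed to 912, 2706, 5214, 5174 and 4320.5 CPM in RFPpos mice 1 to 5, and to 3621, 5150.4, 4605, 3493 and 4108 CPM in RFPneg mice 1 to 5, with 1 called lower, a call lost without mouse 1 or 2, while 2 were called without mouse 4 or 5. With libraries scaled to microglia markers, 7 of the 10 were called lower, and *Slc1a2* was at -1.89 in place of -0.69. The 5 olfactory ensheathing glia markers, led by *Fabp7*, summed to 112, 1215, 1560.2, 1377 and 1709 CPM in RFPpos and to 288, 765, 1005, 350.1 and 794 CPM in RFPneg, with 3 called higher, or 2 without mouse 2, 4 or 5 and with DESeq2, and no call with libraries scaled to microglia markers. RFPpos mouse 1 was the lowest RFPpos sample in both lists, as it was in *Vtn*, *Dcn* and *Apod*. RFPpos mouse 5, with 1 count each of *Dcn* and *Col1a2*, was the highest RFPpos sample in the olfactory ensheathing glia list. Whether these glia carried any of the counts of the vessel wall genes was not tested.

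The 12 microglia markers, led by *Ctss*, summed to 24975 to 31380.3 CPM in RFPpos and 10649 to 16645 CPM in RFPneg, and 10 were called higher. RFPpos mouse 1 was the highest sample, at 31380.3 CPM. It was also the highest RFPpos sample in the oligodendrocyte (391 CPM) and neuron (157 CPM) lists. In the endothelial (112 CPM) and oligodendrocyte progenitor (67.4 CPM) lists it was the lowest RFPpos sample. Of the 10 oligodendrocyte markers, led by *Mbp*, all were called lower, from 2289 ± 1065 to 267 ± 89.7 CPM (SD, n = 5 each) in sum. The choroid plexus and ependyma list, led by *Ttr*, had 1 of 7 tested genes called lower, and RFPpos mouse 4, the highest RFPpos sample in *Dcn*, *Col1a2*, *Pdgfrb* and *Rgs5*, was also the highest in *Ttr* at 1593 CPM. Of the oligodendrocyte progenitor list, led by *Ptprz1*, 3 of 5 tested genes were called lower. They were *Vcan*, *Gpr17* and *Pdgfra*, the last also in the PDGF list. *Ptprz1* itself was not called (log2 fold change 0.06, edgeR adjusted p = 0.926). Of the neuron list, led by *Stmn2*, 3 of 8 were called lower. Of the lymphocyte list, led by *Trbc2* with 0 counts in RFPpos, 2 of 6 were called lower. The progenitor count was 1 without mouse 1, without mouse 2 and with DESeq2, and the neuron count was 1 without mouse 4 and with DESeq2. With libraries scaled to microglia markers, the counts called lower were 4 for the progenitor, 6 for the neuron, 3 for the lymphocyte and 4 for the choroid plexus and ependyma list. The macrophage list, led by *Mrc1*, had 0 of 7 called by edgeR's quasi-likelihood test, 1 lower by its likelihood ratio test, 1 at an unadjusted p below 0.05, and 0 by DESeq2 or limma voom, but 2 were called lower with the microglia scaling. The part of a changed mix of cells in these values was not tested.

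**Figure D5:**
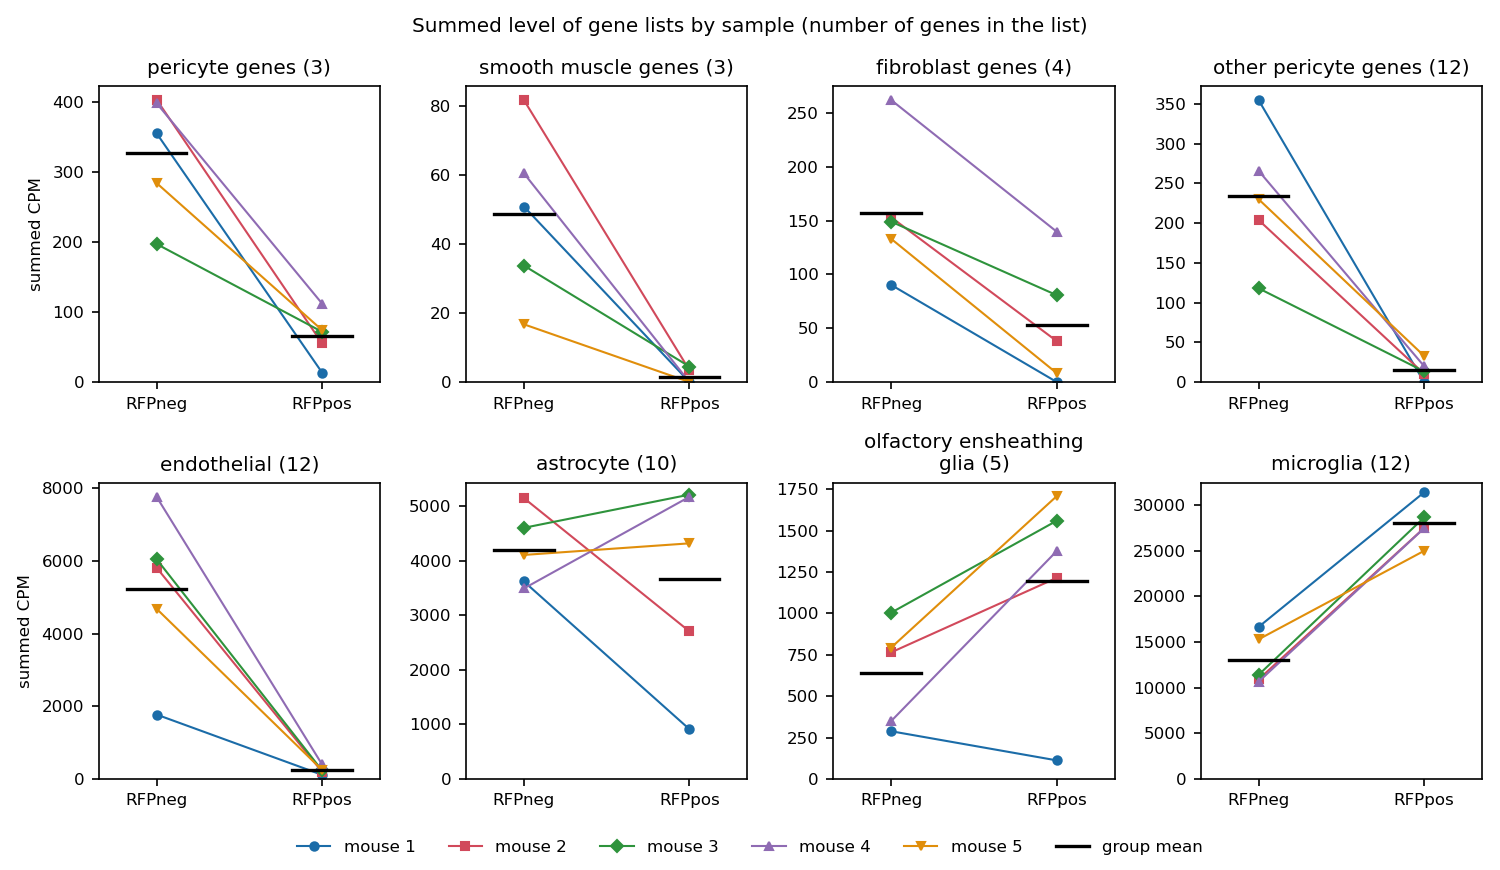
Summed level in CPM (vertical axis) of the pericyte, smooth muscle and fibroblast genes, of 12 other pericyte genes and of marker lists of other cells, in the RFPneg and RFPpos sample of each mouse. Mouse 1 is the lowest RFPpos sample in the pericyte, fibroblast, other pericyte, endothelial, astrocyte and olfactory ensheathing glia lists. It is the highest in the microglia list.

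The genes whose profile over the 10 samples was most like that of the 10 genes summed were found among 6949 candidates with at least 50 counts outside all lists. Likeness was the mean absolute difference between centred log2 CPM profiles. *Aldh4a1* was nearest, at 0.27, followed by *Slc6a11* and *Inf2*, both at 0.35, *Tspan5* at 0.38 and *Rnf144a* at 0.42. *Slc6a11*, a GABA transporter gene of astrocytes, had 56, 90, 146, 77 and 99 counts in RFPneg mice 1 to 5 and 3, 27, 35, 58 and 30 in RFPpos mice 1 to 5, so that it too was lowest in RFPpos mouse 1 and highest in RFPpos mouse 4 by count.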

How the data were processed

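The 10 bulk samples were used, RFPneg and RFPpos of mice 1 to 5. According to the methods, the authors made QuantSeq 3′ FWD libraries, processed them with the Lexogen UMI pipeline and deposited counts per gene without normalization. The genome build and annotation of the bulk counts are not given in the sources used here. The single-cell samples were not analysed here, and protein sequences were not used here. Symbols of 47224 of 47643 identifiers and coordinates came from GENCODE M21 on GRCm38. Reads on no gene (32.1% to 37.2% of reads in RFPneg samples and 38.4% to 48.6% in RFPpos samples) and ambiguous reads stayed out of library sizes.

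Genes with at least 10 counts in all were fitted with edgeR 4.0.16 in R 4.3.3 (TMM scaling, quasi-likelihood test, mouse as a block), with Benjamini-Hochberg adjustment over all 12270 genes tested. The procedure was tested on simulated data. Alternatives were other scalings, filters and tests (DESeq2 1.42.0, limma 3.58.1), no block, other call rules, thinned counts, library sizes with reads on no gene, and each mouse left out. By the methods, both populations came from the same mice. Which samples form a pair was taken from their numbers, and samples of the same number carry the same age. Deviations from the group means correlated within these pairs at 0.10, 0.00, 0.05, 0.00 and 0.01, which does not settle the pairing. No 2 libraries were identical.

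The members and lists were chosen with earlier results of these data known. Named were the 10 genes, each list's called genes and its 3 genes with most counts, the 5 genes of most like profile and the most abundant gene of each marker list. Genes named beside these were chosen after their values were seen. Replicates are separate mice.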

Additional observations from a re-analysis of the deposited data

Results flagged for a closer look

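Of 117 groups of 5 samples examined for the named genes, 11 had a sample far from the others. A rate of 1 in 20 would give 5.85. That rate does not hold for a group otherwise at 0, where any count stands apart by construction. Nothing is therefore concluded from setting 11 against 5.85. Several of the 11 are single counts in a group otherwise at 0. These are *Acta2* in RFPpos mouse 3 (4.48 CPM), *Myl9* in RFPpos mouse 2 (3.45 CPM), *Tbx18* in RFPpos mouse 2 (3.45 CPM) and *Rgs4* in RFPpos mouse 1 (4.49 CPM), each 1 count.

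*Foxc1* and *Foxf2* had counts in RFPpos mouse 4 alone of the RFPpos samples, at 12 CPM (3 counts) and 16 CPM (4 counts). The same RFPpos sample had 1593 CPM of *Ttr*, where the others had 155 to 426 CPM. *Col4a1* was at 98.6 CPM in RFPpos mouse 3, where the others had 0 to 27.9 CPM. *Stmn2* was at 40.3 CPM in RFPpos mouse 3 and at 0 in the others.

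In RFPneg, *Dcn* was at 173 CPM in mouse 4, where the others had 56.1 to 67.7 CPM, and *Slc6a11* was at 459 CPM in mouse 2, where the others had 309.9 to 351 CPM.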

How the results depend on the processing

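Among the 9 tested of the 10 genes, 146 alternative fits gave 0 changes of sign; 130 kept the side of the threshold, 12 lost the call (10 of *Col1a2*, 2 of *Vtn*) and 4 gained one. *Pdgfrb*, *Rgs5*, *Acta2* and *Dcn* kept their calls in every fit that tested them. Among 53 other named genes, 931 alternative fits gave 21 changes of sign; 853 kept the side of the threshold, 61 lost the call, 15 gained one and 2 were called in one fit and of opposite sign in the other (*Rgs10* and *Ptprz1*). *Sparc* went from 0.91 to -0.29 and *P4ha1* from 0.86 to -0.34 with the microglia scaling. This scaling moved the median of all genes by -1.18, so a change of sign under it says little about a single gene. DESeq2 gave no adjusted p for *Tagln*, *Myl9*, *Higd1b* and *Cspg4*.

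The fit with the mouse as a block is the main one, since the study's methods adjust for mouse. With no replicate block, 946 genes were called lower and 371 higher, 5 of the 10 genes, 26 of the wider lists and 4 relatives. Among the 10 genes, leaving out the block changed only the call of *Col1a2*.

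Library sizes from microglia markers moved the median of all genes by -1.18, with 5450 genes lower, 6 higher and 47 in the wider lists; *Rgs10* was then -0.14 and *Ptprz1* -1.17. The filterByExpr filter, which tests 4210 genes, gave 385 lower, 3 of the 4 tested among the 10 genes, 8 of 20 in the wider lists and 2 relatives. Unadjusted p-values gave 1386 genes lower, DESeq2 206 higher, and no fold threshold 524 higher; the cause of the DESeq2 change was not tested. Leaving out each mouse gave 14 to 23 in the wider lists.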
